A study of Oryza sativa with 6 samples.

Results

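In the roots of rice seedlings left without water, 234 entries of the deposited expression table stood at no more than 0.33 of their well-watered level after 2 d and again after 3 d of water deficiency (WD). They were selected on these measured values, from 1637 entries that named a rice locus, had a control level over 10 FPKM (a fragment count scaled by transcript length and library depth) and were listed within fixed limits near the start of 7 chromosomes. Those limits, about the first 10 Mb of chromosome 1, 6.0 Mb of chromosome 2, 4.9 Mb of chromosome 3, 7.4 Mb of chromosome 5, 11 Mb of chromosomes 6 and 8 and 5.1 Mb of chromosome 12, hold 8457 of the 58337 entries that name a locus, out of 63985 entries in all. Among entries over the same control level, 7.03% shared a locus name with another entry inside the limits and 48.3% outside them. The 234 entries name 252 distinct loci, and 18 of them list more than 1 locus.

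The plants were 4-week-old seedlings of the japonica cultivar Chilbo, grown in soil in an incubator. Roots came from a control group kept watered, from plants with irrigation withheld for 2 d and from plants with irrigation withheld for 3 d, with 2 libraries in each of the 3 groups. The deposited tables give 1 pooled FPKM value per group and entry, so no spread between libraries can be given, no value below carries an SD and no test was run. The control value, the 2 d value and the 3 d value all entered the choice of entries, and both WD times were set against the same control, so every level and ratio below is a description of what was chosen.

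Growing roots expand and thicken their cell walls, take up ions and bring in sugar, and root growth of grasses is known to slow as soil dries. Synthases lay down cellulose, xylan and mixed-linkage glucan, glycosyl hydrolases trim and rejoin the chains, and class III peroxidases use hydrogen peroxide to cross-link phenolics and lignin in the finished wall. In whole-root RNA, fewer cells of a type and less RNA per cell cannot be told apart.

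The median level of the 234 entries was 27.2 FPKM in control, 3.61 FPKM at 2 d and 1.61 FPKM at 3 d. Their median ratio to control was 0.152 at 2 d, which is 6.57-fold lower, and 0.0685 at 3 d, which is 14.6-fold lower. Among all 1637 entries over the floor the median ratio was 0.947 at 2 d and 0.920 at 3 d. The entries that met the limit at both times were 14.3% of those examined, and outside the position limits 873 of 5845 named entries (14.9%) met it. Inside them 242 entries (14.8%) met it at 2 d and 320 (19.5%) at 3 d. Only 8 entries (0.489%) met it at 2 d and not at 3 d, whereas 86 (5.25%) met it at 3 d alone. Levels of 3 times control or more were less frequent, at 48 entries (2.93%) at 2 d, 71 (4.34%) at 3 d and 42 (2.57%) at both times.

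**Figure D1:**
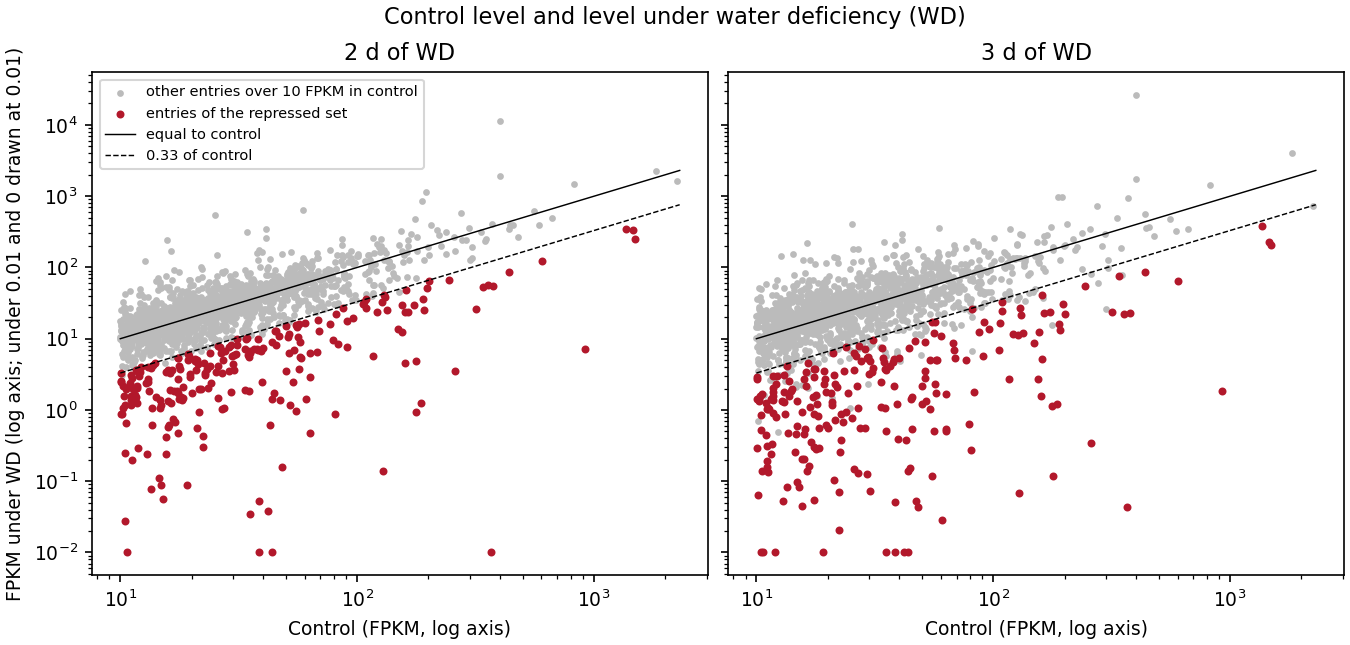
Level under WD (vertical, FPKM, log axis) against the control level (horizontal, FPKM, log axis) for the 1637 entries over 10 FPKM in control, at 2 d (left) and 3 d (right), with 1 pooled value per group; values under 0.01, including 0, are drawn at 0.01. The 234 entries of the repressed set (red) lie on or under the line at 0.33 of control in both panels, and their median is 3.61 FPKM in the left panel and 1.61 FPKM in the right one.

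Together the 234 entries accounted for 20.8% of the summed FPKM of the 8457 entries in control, 2.94% at 2 d and 1.74% at 3 d. Their own sum was 18180 FPKM in control, 2921 FPKM under 2 d and 2040 FPKM under 3 d. All 8457 entries summed to 87344, 99485 and 117464 FPKM. The highest level of any entry over the floor was 2238 FPKM in control, 11238 FPKM at 2 d and 26220 FPKM at 3 d. These maxima were taken in each group separately and need not belong to the same entry. Single entries thus weigh on these totals. Over all entries above 4 FPKM in both groups, the median ratio to control was 1.06 at 2 d (11718 entries) and 1.12 at 3 d (11089 entries), or 0.08 and 0.17 on the log2 scale. Dividing by these medians gave 250 entries in place of 234.

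The limits of the rule cut through a continuous range. The entries just inside the ratio limit were LOC_Os06g06160, an IQ calmodulin-binding motif protein, at 0.328 of control at 2 d, LOC_Os05g09440, a NADP-dependent malic enzyme, at 0.328, and LOC_Os06g11310 at 0.325. Just outside stood LOC_Os03g03180 at 0.331, LOC_Os08g17410 at 0.333 and LOC_Os08g07010 at 0.333 at 2 d, with 3 d ratios of 0.248, 0.123 and 0.121. At the floor, LOC_Os12g02030 (10.02 FPKM in control), LOC_Os08g15060 (10.04 FPKM) and LOC_Os01g09580 (10.05 FPKM) were kept. LOC_Os01g02890 (9.70 FPKM), LOC_Os06g11520 (9.56 FPKM) and LOC_Os03g06670 (9.54 FPKM) had ratios under the limit at both times and were left out.

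Most of the set stood lower at 3 d than at 2 d. The 3 d level was below the 2 d level in 201 of the 234 entries (85.9%), above it in 30, and equal, at a listed 0, in 3. Over all 1637 entries, 52.2% were lower at 3 d than at 2 d. At 3 d, 108 entries of the set (46.2%) were at 0.5 or less of their 2 d level, against 4.70% of the other entries over the floor and 10.8% of all of them. The median ratio of the 3 d to the 2 d level was 0.523 over the 230 entries above 0 at 2 d and 1.03 over the entries outside the set. Since the limit had to be met at both times, these shares describe the chosen entries and are no test of a second step.

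The step from 2 d to 3 d was steepest in 21 entries, which at 3 d held 10% or less of their 2 d level. Among them LOC_Os03g02040, a remorin, a plasma-membrane protein that marks membrane microdomains, stood at 79.3 FPKM in control, 9.67 FPKM at 2 d and 0.640 FPKM at 3 d. LOC_Os05g01810, described as xylem cysteine proteinase 2, which in Arabidopsis takes part in the autolysis of differentiating xylem vessels, went from 63.2 to 6.23 and then 0.538 FPKM. The fasciclin-like arabinogalactan protein and both amino acid transporters described below belong to the same 21 entries. In the other direction, 11 entries had a 3 d level at least 25% above their 2 d level, among them LOC_Os12g06490, described as a Wnk kinase, at 339 FPKM in control, 53.6 FPKM at 2 d and 76.1 FPKM at 3 d. LOC_Os02g02830, a ubiquitin-conjugating enzyme, which passes ubiquitin to target proteins, likewise stood at 27.1, 4.97 and 7.93 FPKM.

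**Figure D2:**
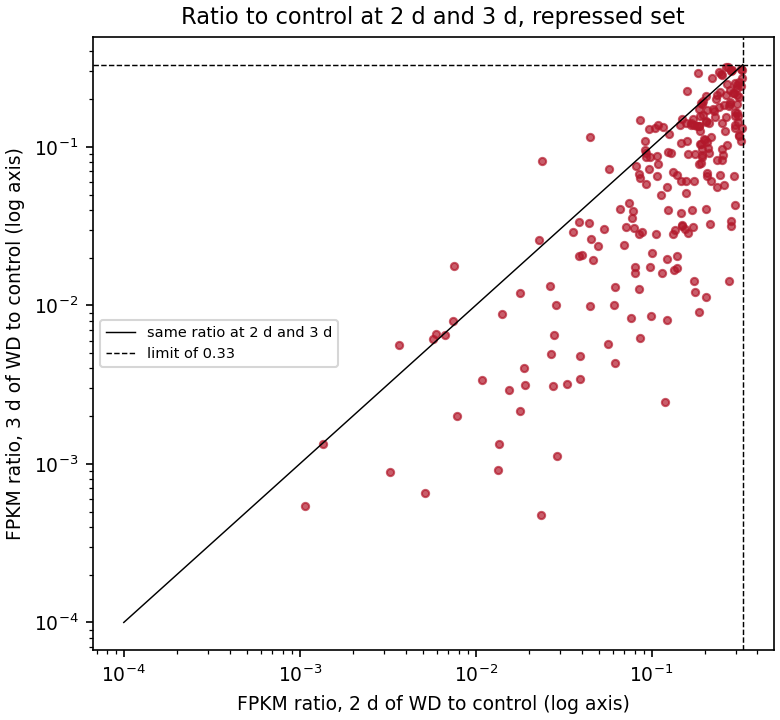
Ratio of the 3 d level to control (vertical, log axis) against the ratio of the 2 d level to control (horizontal, log axis) for the 225 entries of the set above 0 FPKM at both times; the 9 entries listed at 0 at 2 d or 3 d are not drawn. Points under the solid line were lower at 3 d than at 2 d, as 201 of all 234 entries were, and the dashed lines mark the limit of 0.33.

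A gene description was at hand for 98 of the 234 entries. Descriptions come with the genes that the study called changed, so they are not independent of the readout. None of the 126 entries of the set at or below 4 FPKM at both times had one. Within the 466 described entries over the floor the share in the set was 21.0%. The median ratio of the 466 was 0.622 at 2 d and 0.445 at 3 d, and 69 of them stood at 3 times control or more at 3 d. Counts by group below are to be read beside these shares, and many groups hold only a few entries. Counts from lists of loci are to be read beside the 14.3% of all 1637 entries. The described entries of the set had medians of 55.7 FPKM in control and of 0.205 and 0.116 for the 2 ratios. A word group fixed for this work held 48 of the 98, 10 were described as expressed protein only, and 40 had another description.

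Peroxidases were among the lowest. Of 5 described peroxidases over the floor, 4 were in the set, against 21.0% of all described entries. None stood at 3 times control or more at 3 d, where 69 of the 466 described entries did. LOC_Os01g15830 was the most abundant of them, at 358 FPKM in control, 56.5 FPKM at 2 d and 21.9 FPKM at 3 d. LOC_Os05g06970 stood at 158.9 FPKM, 4.53 FPKM and 1.59 FPKM, which is 99.8-fold lower at 3 d. LOC_Os05g04380 went from 83.2 to 8.34 and 1.79 FPKM, and LOC_Os05g04500 from 45.2 to 8.04 and 0.548 FPKM. The fifth, LOC_Os03g02920, passed the limit at 3 d alone, at 35.3, 21.3 and 5.69 FPKM. A wider list of 20 loci taken as class III peroxidases had 21 entries within the position limits, of which 11 were over the floor. At 2 d 9 of the 11 were at or below 0.33 of control, at 3 d 10 were, and 9 were in the set. Of all 1637 entries over the floor, 14.3% were in the set. The median ratios over the 11 were 0.1002 at 2 d and 0.0215 at 3 d. Of those 9, 5 are the run of entries on chromosome 5 described next and 1 is LOC_Os01g15810, so the list and that run are not separate findings. The list rests on general knowledge, and 5 of the 11 are described as peroxidases. Peroxidase genes are a large family of similar sequences, and how reads shared between copies were counted is not given in the sources used here, so single values within the family are uncertain.

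A stretch of chromosome 5 carried the longest run of the set. Between LOC_Os05g04380 and LOC_Os05g04500, listed on IRGSP 1.0 at 2010114 to 2082760 (72.6 kb), the files hold 13 entries, of which 5 were over the floor and all 5 belonged to the set. The outer pair are described peroxidases, given above. The inner 3 have no description here but are on the wider peroxidase list, as are LOC_Os05g04450 and LOC_Os05g04490. LOC_Os05g04410 stood at 14.7 FPKM in control, 1.06 FPKM at 2 d and 0.461 FPKM at 3 d. LOC_Os05g04440 stood at 38.5 FPKM, 0.0524 FPKM and 0.0517 FPKM. LOC_Os05g04470 stood at 14.8 FPKM, 0.0883 FPKM and 0.0985 FPKM, so the inner 3 were near or under 1 FPKM by 2 d, while the outer pair kept about 8 FPKM then. Below the floor, LOC_Os05g04450 (4.05 FPKM in control) and LOC_Os05g04490 (6.37 FPKM) were at 0.0593 and 0.0484 FPKM at 3 d.

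**Figure D3:**
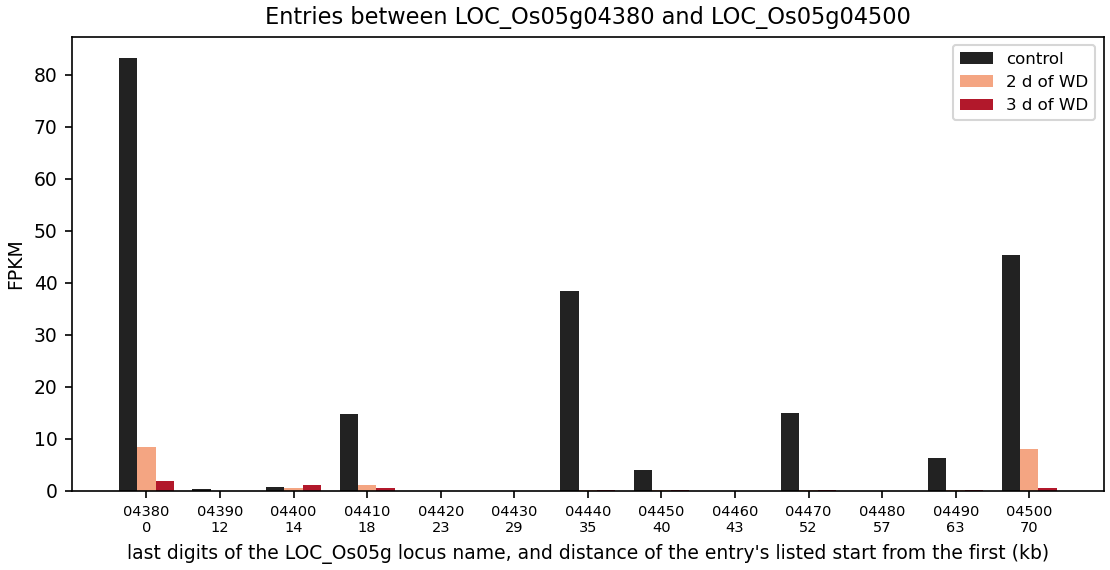
Level (vertical, FPKM, linear axis from 0) in control, at 2 d and at 3 d of WD for the 13 entries between LOC_Os05g04380 and LOC_Os05g04500 on chromosome 5, ordered by their listed start, with the distance from the first start in kb. The 5 entries over 10 FPKM in control are the 5 of the set, the highest under WD being LOC_Os05g04380 at 8.34 FPKM at 2 d.

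Entries with wall-related words in their description, such as glycosyl hydrolase or glycosyltransferase, made up the next group. Not every entry chosen by these words need act on wall polymers. Of 11 described entries 6 were in the set, against 21.0% of all described entries. None stood at 3 times control or more at 3 d. LOC_Os08g06380 is CSLF6, the synthase of the mixed-linkage glucan of grass walls, and stood at 57.5 FPKM in control, 8.90 FPKM at 2 d and 1.75 FPKM at 3 d. LOC_Os05g03174, of glycosyltransferase family GT43, whose Arabidopsis members act in building the xylan backbone, stood at 20.8, 4.91 and 1.17 FPKM. LOC_Os08g13920, a hydrolase of family GH16, which includes the enzymes that cut and rejoin xyloglucan, went from 106.2 to 31.1 and 6.93 FPKM. All 3 were lower at 3 d than at 2 d, and CSLF6 had the lowest ratio of them at 3 d.

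Enzymes that trim side chains were in the group as well. LOC_Os12g03470, an alpha-N-arabinofuranosidase, which removes arabinose from wall polysaccharides, stood at 131 FPKM in control, 38.8 FPKM at 2 d and 21.6 FPKM at 3 d. LOC_Os03g06940, a beta-galactosidase, stood at 26.5, 6.24 and 2.19 FPKM. LOC_Os03g03600, a fasciclin-like arabinogalactan protein, a glycoprotein of the cell surface, was the lowest of the group at 3 d, at 56.3, 10.5 and 0.515 FPKM, or 109-fold lower. In a list of 6 loci taken as cell wall glycan synthases, 4 of 7 entries were over the floor. At 2 d 2 of them were at or below the limit and at 3 d 3 were, with CSLF6 and LOC_Os02g09930 in the set. Of all 1637 entries over the floor, 14.3% were in the set. CESA1, LOC_Os05g08370, a cellulose synthase subunit, was outside it at 2 d with 72.1 FPKM against 177 FPKM in control, and stood at 15.6 FPKM at 3 d. CSLD2, LOC_Os06g02180, stayed above the limit at both times, at 34.7, 20.9 and 15.6 FPKM.

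Proteins that handle lipids outside the cell were also in the set. GDSL lipases are esterases, some of which act on cutin and suberin. Of 5 described entries 3 were in the set, against 21.0% of all described entries. LOC_Os06g06290 went from 159.9 FPKM to 23.7 FPKM at 2 d and 5.17 FPKM at 3 d. The nearby LOC_Os05g11910 and LOC_Os05g11950 were 5.40-fold and 7.42-fold lower at 3 d, from 29.2 and 38.1 FPKM in control. Both described lipid transfer proteins, small secreted proteins that bind lipids, were in the set, against the same 21.0%. LTPL104, LOC_Os05g06780, stood at 602 FPKM in control, 125 FPKM at 2 d and 64.2 FPKM at 3 d, and LTPL43, LOC_Os02g08010, at 164, 23.8 and 22.7 FPKM. LTPL104 was lower at 3 d than at 2 d, whereas LTPL43 was nearly level between the times.

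Microtubules guide the deposition of cellulose. Of 5 described entries matched by tubulin, actin or kinesin, 2 were in the set, against 21.0% of all described entries. The match also takes these letters inside longer words, so not all 5 need be of the cytoskeleton. LOC_Os02g07060 stood at 155 FPKM in control, 29.7 FPKM at 2 d and 12.4 FPKM at 3 d. LOC_Os03g01530 stood at 23.9, 4.08 and 0.951 FPKM. Both are described by a tubulin/FtsZ domain, and reads shared among tubulin copies make single values uncertain here too.

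Sugar metabolism had 3 of 6 described entries in the set, against 21.0% of all described entries. At 3 d 1 of the 6 stood at 3 times control or more. Sucrose synthase, LOC_Os06g09450, which splits sucrose into fructose and the UDP-glucose used for cellulose, was the second most abundant entry of the set in control, at 1461 FPKM, and stood at 335 FPKM at 2 d and 224 FPKM at 3 d. LOC_Os08g02120, a kinase of the pfkB family, which includes fructokinases, stood at 148, 13.8 and 8.66 FPKM. LOC_Os06g05860, a phosphofructokinase, the enzyme of the first committed step of glycolysis, stood at 30.9, 6.20 and 3.41 FPKM. Even at 3 d sucrose synthase kept the highest level of these 3 by a wide margin.

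Transporters had 5 of 19 described entries in the set, near the 21.0% of all described entries, and none at 3 times control or more. The lowest ratio was that of LOC_Os02g03900, described as the metal transporter Nramp6, of a family that carries divalent metal ions, at 177 FPKM in control, 4.94 FPKM at 2 d and 1.15 FPKM at 3 d, or 154-fold lower. The nearby amino acid transporters LOC_Os12g08090 and LOC_Os12g08130 stood at 22.5 and 35.4 FPKM in control, 4.58 and 6.20 FPKM at 2 d and 0.256 and 0.501 FPKM at 3 d. LOC_Os08g05910, a peptide transporter of the PTR2 type, and LOC_Os01g04990, a mitochondrial carrier, were 7.28-fold and 7.08-fold lower at 3 d. Unlike the amino acid transporters, these last 2 changed little from 2 d to 3 d, from 5.85 to 4.77 FPKM and from 4.08 to 3.66 FPKM. Outside the set, the root potassium channel SKOR, LOC_Os06g14030, which in Arabidopsis loads potassium into the xylem, was at 35.6, 11.2 and 13.0 FPKM, and an inorganic phosphate transporter, LOC_Os03g05620, at 40.4, 13.8 and 4.94 FPKM. Both were above the floor in control, and each missed the limit at 1 of the 2 times. They come from a list of 6 loci taken as root genes, of which 4 were over the floor and 3 met the limit at each time. In the set were 2, LOC_Os03g01700 and LOC_Os03g05640 (42.9, 0.608 and 0.376 FPKM), where 14.3% of all 1637 entries over the floor were. The rest of the list, LOC_Os02g02170 and LOC_Os02g02190, stood at only 0.0793 and 0.0815 FPKM in control.

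All 3 described AP2-domain transcription factors over the floor were in the set, against 21.0% of all described entries. LOC_Os03g08470 stood at 316 FPKM in control, 25.7 FPKM at 2 d and 23.9 FPKM at 3 d. LOC_Os05g03040 stood at 197, 52.2 and 30.5 FPKM. LOC_Os06g11860, described as an ethylene-responsive transcription factor, stood at 27.7, 6.72 and 4.92 FPKM. AP2-domain factors bind DNA in ethylene, drought and developmental responses, and for LOC_Os03g08470 nearly all of the difference from control was present by 2 d.

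Other transcription factors had 5 of 22 described entries in the set, near the 21.0% of all described entries. At 3 d 4 stood at 3 times control or more, as did 69 of all 466 described entries. The group was formed by words such as zinc finger, and not every entry in it need be a transcription factor. Auxin response factor 1, LOC_Os01g13520, of the family that binds auxin-responsive promoters, stood at 122 FPKM in control, 23.5 FPKM at 2 d and 11.7 FPKM at 3 d. In a list of 9 Aux/IAA and auxin response factor loci, 7 entries were over the floor and this was the 1 that met the limit at both times, and the median ratio of those 7 was 0.785 at 2 d and 0.822 at 3 d. OsIAA3, LOC_Os01g13030, an auxin response repressor, was at 49.7 FPKM in control and reached the limit at 3 d alone, with a ratio of 0.363 at 2 d and 0.223 at 3 d. OsIAA20, LOC_Os06g07040, another repressor of the family, was above control at both times, at 29.0, 77.1 and 56.1 FPKM.

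WRKY71, LOC_Os02g08440, known in rice as a repressor of gibberellin responses in the grain, stood at 54.2 FPKM in control, 6.99 FPKM at 2 d and 4.96 FPKM at 3 d. The bZIP factor LOC_Os02g10140 stood at 58.0, 5.38 and 4.99 FPKM. The zinc finger entries LOC_Os05g03760 and LOC_Os02g06920 were 9.17-fold and 4.98-fold lower at 3 d, from 201 and 46.6 FPKM in control. The first of these was at 64.6 FPKM at 2 d and 21.97 FPKM at 3 d. The second was at 10.8 and 9.36 FPKM, so it changed little between the times. LOC_Os02g06920 is of the C3HC4 type, known from RING-finger ubiquitin ligases. It was counted here by its words alone and is also counted under protein turnover.

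Signalling proteins were spread over several groups. Among kinases and receptors, 7 of 31 described entries were in the set and 4 were at 3 times control or more at 3 d, again close to the share of all described entries. They included LOC_Os02g09359, described as a receptor kinase associated with the brassinosteroid receptor, at 31.1, 8.16 and 3.90 FPKM, and the kinase LOC_Os01g10450 at 57.6, 5.62 and 4.97 FPKM. Type 2C protein phosphatases are a family with members that restrain abscisic acid signalling. Of 3 described entries, LOC_Os02g08364 and LOC_Os03g04430 were in the set, against 21.0% of all described entries. They stood at 91.0, 17.4 and 17.2 FPKM and at 161, 47.8 and 40.9 FPKM, and their descriptions do not link them to abscisic acid. Calcium-linked proteins had 3 of 7 described entries in the set, against 21.0% of all described entries. At 3 d 2 of the 7 stood at 3 times control or more. LOC_Os05g03190, an IQ calmodulin-binding motif protein, stood at 129.8, 41.0 and 26.9 FPKM, LOC_Os06g06160 of the same kind at 109, 35.7 and 33.2 FPKM, and the calmodulin-dependent kinase type entry LOC_Os06g03676 at 56.0, 14.8 and 11.9 FPKM.

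**Figure D4:**
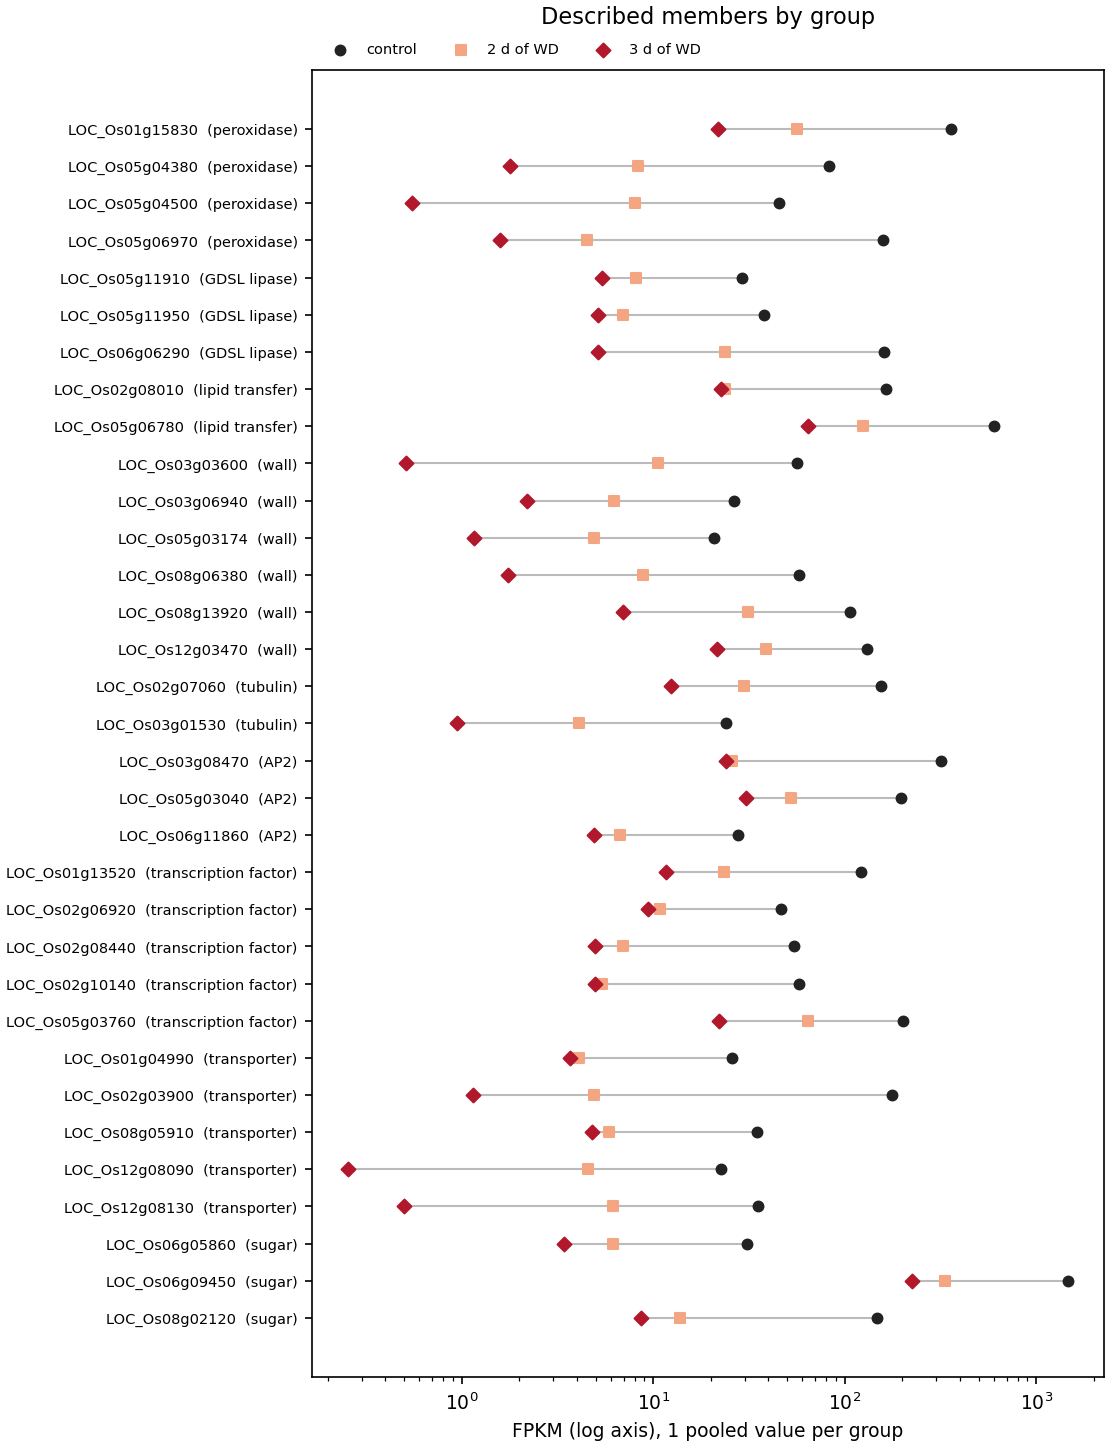
Level (horizontal, FPKM, log axis) in control (circle), at 2 d (square) and at 3 d (diamond) of WD for described entries of the set in the peroxidase, GDSL lipase, lipid transfer, wall, tubulin, AP2, transcription factor, transporter and sugar groups, with 1 pooled value per group joined by a line. The control circle is the highest in every line, the diamond is never to the right of the square, and the longest lines belong to entries such as LOC_Os02g03900 (177 to 1.15 FPKM). The transcription factor lines were chosen by words and include the C3HC4 zinc finger entry LOC_Os02g06920.

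Protein turnover had 5 of 20 described entries in the set, near the 21.0% of all described entries, and 4 at 3 times control or more at 3 d. Besides the xylem cysteine proteinase and the ubiquitin-conjugating enzyme they included the carboxypeptidase OsSCP6, LOC_Os02g02320, at 68.9, 12.8 and 5.37 FPKM. The others were the F-box protein OsFBL7, LOC_Os02g10700, at 243, 67.7 and 55.3 FPKM, and the C3HC4 zinc finger entry LOC_Os02g06920 given above. F-box proteins choose targets for ubiquitin ligases, and OsFBL7 was the most abundant of the 5 at each time.

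The 40 entries with other descriptions belong to many pathways and were chosen for mention after their values were seen. LOC_Os06g13680, a B12D protein, of a family first described from barley seed, had the highest control level of the set at 1486 FPKM, and stood at 249 FPKM at 2 d and 209 FPKM at 3 d. LOC_Os05g03860, a transcript with a conserved upstream reading frame named CPuORF3, stood at 437, 85.7 and 85.5 FPKM, and was level between 2 d and 3 d. Methyl and amino acid metabolism was represented by methionine S-methyltransferase, LOC_Os05g01470, which makes S-methylmethionine, at 51.4, 6.30 and 2.85 FPKM, and by an aminotransferase, LOC_Os08g10510, at 39.3, 6.76 and 1.23 FPKM. The glycine cleavage system H protein, LOC_Os02g07410, which carries the aminomethyl group between the subunits of that complex, stood at 133 FPKM in control, 25.7 FPKM at 2 d and 11.9 FPKM at 3 d.

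Lipid signalling enzymes were also present. Phospholipase C, LOC_Os05g03610, which releases diacylglycerol from membrane lipids, stood at 173 FPKM in control, 30.1 FPKM at 2 d and 23.8 FPKM at 3 d. Diacylglycerol kinase, LOC_Os08g08110, which converts that product to phosphatidic acid, stood at 51.7, 11.6 and 8.92 FPKM. An acyl-CoA binding protein, LOC_Os08g06550, stood at 189, 36.6 and 16.3 FPKM. Among entries with a late drop, a soluble inorganic pyrophosphatase, LOC_Os05g02310, which hydrolyses pyrophosphate in the cytosol or plastids, went from 45.1 to 12.8 and then 1.43 FPKM, and an amidase, LOC_Os12g07150, from 45.3 to 12.8 and then 1.54 FPKM. Both lay near the ratio limit at 2 d and 31.6-fold and 29.4-fold below control at 3 d.

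Of the 10 entries described as expressed protein, 3 were very abundant in control. LOC_Os05g02420 stood at 1363 FPKM, 341 FPKM at 2 d and 384 FPKM at 3 d. LOC_Os03g01700 stood at 921 FPKM, 7.18 FPKM at 2 d and 1.85 FPKM at 3 d, or 128-fold and 498-fold lower. LOC_Os06g13800, whose entry also lists a second locus, stood at 376, 55.4 and 22.8 FPKM. Of the 11 entries of the set over 300 FPKM in control, LOC_Os06g07240 alone had a lower ratio than LOC_Os03g01700 at either time.

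The 136 entries without a description were less abundant in control and had lower ratios. Their medians were 17.5 FPKM in control, 1.66 FPKM at 2 d and 0.690 FPKM at 3 d, with ratios of 0.0872 and 0.0306. At 3 d, 40 of them were at 1% of control or less, against 5 of the described entries. Descriptions came with genes that the study called changed, with FPKM over 4 among its criteria. In the set, entries low under WD are therefore mostly undescribed, and these differences describe that selection. Of the 136, 126 were at or below 4 FPKM at both times, and the other 10 were above that at 1 time or more. Control levels in these 136 ranged from 10.02 to 369 FPKM, and 6 were above 100 FPKM. Besides LOC_Os06g07240 these were LOC_Os03g05530 (259.6 FPKM in control, 3.51 FPKM at 2 d, 0.347 FPKM at 3 d), LOC_Os01g09030 (186, 1.24 and 1.21 FPKM), LOC_Os05g12280 (178, 0.922 and 0.116 FPKM), LOC_Os03g04070 (155, 12.5 and 2.69 FPKM) and LOC_Os01g03630 (128, 0.138 and 0.0690 FPKM). Of these, LOC_Os03g04070 alone was above 4 FPKM at 2 d.

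The lowest values of the set were listed zeros. At 2 d 4 entries were listed at 0 and at 3 d 8 were, 3 of them at both times. Those at 0 at both times were LOC_Os05g11580 (43.8 FPKM in control), LOC_Os08g16040 (38.6 FPKM) and LOC_Os02g03190 (10.7 FPKM). At 0 at 3 d only were LOC_Os01g03890 (42.1 FPKM in control, 0.0387 FPKM at 2 d), LOC_Os06g12180 (35.2 and 0.0342 FPKM), LOC_Os01g13610 (19.1 and 0.0884 FPKM), LOC_Os05g02390 (11.9 and 0.290 FPKM) and LOC_Os05g12320 (10.5 and 0.0273 FPKM). LOC_Os06g07240, whose entry also lists LOC_Os06g07250, stood at 369 FPKM in control, was listed at 0 at 2 d and at 0.0440 FPKM at 3 d. The next lowest, LOC_Os01g12130, stood at 60.6, 1.42 and 0.0288 FPKM. No fold is given against a listed 0, since the depth of the libraries is not known and a 0 may be a failed estimate.

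In all, 39 entries of the set were below 1 FPKM at 2 d and 85 at 3 d, whereas 2.38% and 5.31% of all 1637 entries were. The ratio was 10% or less in 85 entries at 2 d and in 143 at 3 d, and 1% or less in 19 and 45.

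The share of entries in the set was higher above 100 FPKM in control. Control level is also the denominator of both ratios, so this was not tested and describes the choice of entries. Of entries at 10 to 20 FPKM in control 13.5% (88 of 650) were in the set, of those at 20 to 50 FPKM 11.7% (74 of 631) and of those at 50 to 100 FPKM 14.7% (33 of 224). The share was 27.2% (28 of 103) at 100 to 300 FPKM and 37.9% (11 of 29) above 300 FPKM. Over all entries of these classes, in the set or not, the median 3 d ratio was 1.01, 0.926, 0.788, 0.658 and 0.423. The depth of the fall did not follow the same order, with median 3 d ratios in the set of 0.0728, 0.0481, 0.0654, 0.0876 and 0.107 from the lowest to the highest class.

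**Figure D5:**
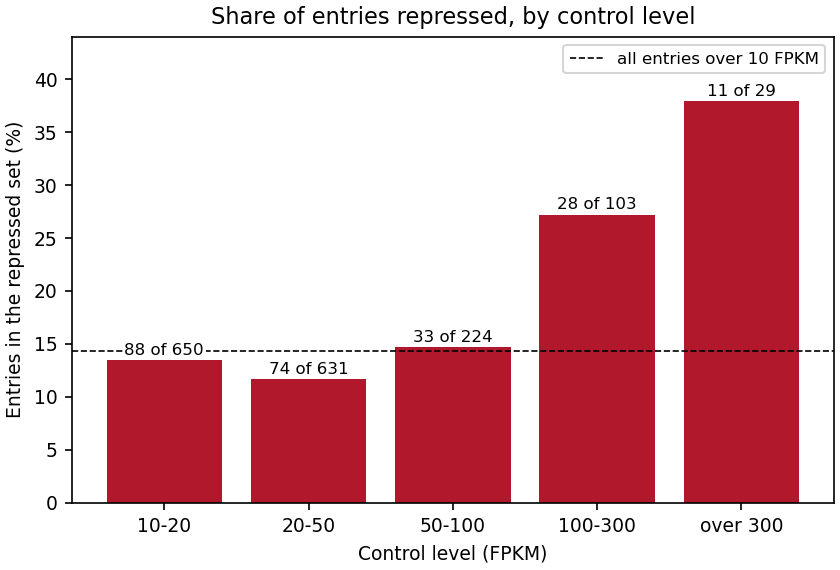
Share of entries that belong to the repressed set (vertical, %, from 0) in 5 classes of control level (horizontal, FPKM), with the counts above each bar. The bars reach 27.2% at 100 to 300 FPKM and 37.9% above 300 FPKM, against 14.3% of all 1637 entries (dashed line). Control level is also the denominator of the ratios that define the set.

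The set was spread over all 7 chromosomes examined. Its share of entries over the floor was 13% on chromosome 1 (39 of 299), 13.8% on chromosome 2 (37 of 268), 16.1% on chromosome 3 (31 of 192), 14.2% on chromosome 5 (36 of 253), 13.7% on chromosome 6 (38 of 277), 13.5% on chromosome 8 (31 of 230) and 18.6% on chromosome 12 (22 of 118). Entries of the set covered 228 of 1507 listed regions over the floor (15.1%), and 38 of 227 (16.7%) were followed along the chromosome by another region of the set. The second share is near the first, so the runs are given as positions and not as a result about the set. A run joins regions over the floor that follow each other, with any entries under the floor between them passed over. There were 28 runs, 7 of them of 3 regions or more. After the run of 5 on chromosome 5, the next was a run of 4 on chromosome 12 (4120561 to 4451150, 331 kb), with both amino acid transporters, LOC_Os12g08270 (15.9, 3.61 and 2.68 FPKM) and LOC_Os12g08720 (11.6, 1.447 and 1.403 FPKM).

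Runs of 3 held described genes beside undescribed ones. On chromosome 1 (8902425 to 8987398) the described peroxidase LOC_Os01g15830 lay between LOC_Os01g15810, which is on the wider peroxidase list, at 22.4, 0.426 and 0.0709 FPKM, and LOC_Os01g15970, an expressed protein at 20.6, 5.17 and 1.71 FPKM. On chromosome 6 (2854348 to 2910916) LOC_Os06g06250, at 34.8, 1.87 and 1.06 FPKM, lay between an IQ motif protein and the GDSL lipase LOC_Os06g06290. On chromosome 5 the pyrophosphatase LOC_Os05g02310 lay between LOC_Os05g02300 (21.4, 1.95 and 2.34 FPKM) and LOC_Os05g02390, and phospholipase C LOC_Os05g03610 lay next to LOC_Os05g03620 (12.04, 2.95 and 0.801 FPKM) and the zinc finger entry LOC_Os05g03760. The run on chromosome 12 from 4879753 to 5040891 had no described entry and held LOC_Os12g09300 (25.8, 1.46 and 0.148 FPKM), LOC_Os12g09540 (63.5, 2.88 and 1.67 FPKM) and LOC_Os12g09580 (26.3, 7.70 and 5.77 FPKM).

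The other 21 runs were pairs. Several joined a described gene to another: the rhodanese-like protein LOC_Os02g07044 (35.2, 6.71 and 3.66 FPKM) lay beside the tubulin entry LOC_Os02g07060, and folylpolyglutamate synthase LOC_Os03g02030, which adds glutamate to folate, at 25.8, 7.86 and 6.38 FPKM, beside the remorin LOC_Os03g02040. The GT43 entry LOC_Os05g03174 lay beside the IQ motif protein LOC_Os05g03190, methionine S-methyltransferase LOC_Os05g01470 beside the ras-related protein LOC_Os05g01480 (34.1, 10.12 and 5.37 FPKM), and the B12D entry LOC_Os06g13680 beside LOC_Os06g13800. Both GDSL lipases of chromosome 5 formed a pair of their own. In the first of these pairs, and in the folate enzyme and remorin pair, both partners were lower at 3 d than at 2 d. The folate enzyme kept most of its 2 d level, whereas the remorin beside it did not.

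In 6 more pairs 1 partner had a description. They included LOC_Os12g07150 with LOC_Os12g07160, LOC_Os02g09720, a multidrug resistance protein, with LOC_Os02g09740, the receptor kinase LOC_Os02g09359 with LOC_Os02g09220, and LOC_Os01g13690 with LOC_Os01g13610. The same held for LOC_Os08g15840, an ankyrin repeat protein, with LOC_Os08g16040, and for LOC_Os06g13560, a carboxyl methyltransferase, with LOC_Os06g13210. The remaining pairs had no description. They were LOC_Os01g03630 with LOC_Os01g03640, LOC_Os01g05180 with LOC_Os01g05250, LOC_Os01g09030 with LOC_Os01g09080, LOC_Os03g04190 with LOC_Os03g04220 and LOC_Os03g05520 with LOC_Os03g05530. On chromosomes 6 and 8 they were LOC_Os06g07240 with LOC_Os06g07300, LOC_Os06g11290 with LOC_Os06g11310, LOC_Os06g18000 with LOC_Os06g19480 and LOC_Os08g02996 with LOC_Os08g03020.

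Listed entries of the set were shorter than the others. The listed span, from first to last base with introns, had a median of 4806 bp in the set and 6675 bp in the other entries over the floor. A locus name was shared with another entry in 21 of the 234 (8.97%), against 7.03% of all entries over the floor, and 12 shared their listed coordinates with another entry of the set, so that they are not separate places. Of the 1522 entries whose locus names no other entry shares, 213 were in the set (14.0%).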

How the data were processed

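Roots were sequenced from 6 libraries, 2 per group. Per the labels and the study's methods, the authors trimmed and checked reads with Trim Galore, cutadapt and FastQC, mapped them with TopHat to IRGSP 1.0 and ran Cuffdiff with the RGAP annotation. For versions, strand setting and scaling the sources used here give nothing. The deposited FPKM values are the authors' own, pooled over the libraries of a group, and 0 columns holding single libraries were used. Depth per library is unknown, so no interval is given. The tables also hold the authors' fold changes, test statistics, p-values and calls, which were not used. The design allowed for limma on values per library, and it was not run.

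Ratios to control were recomputed from FPKM without a pseudocount. Entries, lists and alternatives were chosen with earlier results of these data known. Named are the 10 lowest 3 d ratios, the 10 highest control levels, every described entry of the peroxidase, GDSL, lipid transfer, wall, AP2, transcription factor, auxin, calcium, transporter and sugar groups, those nearest the limits and entries in runs, where regions over the floor follow each other with entries under it passed over. Other genes named were chosen after their values were seen. Loci on the lists were set from general knowledge, and the reference gene list, of another assembly, matched 0 loci of the set. Coordinates are as listed in the files. A run on simulated data with planted falls checked only that the rule was applied as written, and says nothing about the set. Python 3.11.15, pandas 2.3.3, numpy 2.4.6 and matplotlib 3.10.9 were used.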

Additional observations from a re-analysis of the deposited data

How the results depend on the processing

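With a control floor of over 20 FPKM the set held 146 entries and 157 loci, of which 128 entries were lower at 3 d than at 2 d. With no floor it held 1189 entries (23.4%) and 1205 loci, 592 lower at 3 d, with median ratios of 0.0439 at 2 d and 0.00663 at 3 d. A ratio limit of 0.25 gave a share of 11.0% and a median 3 d ratio of 0.0397, and a limit of 0.5 gave 21.1% and 0.131. Asking for over 4 FPKM at both WD times too left 66 entries (4.56%) and 71 loci, 57 lower at 3 d, with a median 3 d ratio of 0.154. Without position limits the set held 1107 entries and 1119 loci, 924 lower at 3 d. In these settings a looser or stricter rule takes more or fewer entries by construction. Adding 1 FPKM to every value kept 213 of the 234 entries, adding 0.1 FPKM kept 232, and dividing by the median ratio kept all 234 among 250. Taking single, unshared locus names gave 196 entries, and leaving out the 5 entries with a listed span under 1 kb, an alternative chosen after seeing the data, gave 229. No paired analysis was possible because the tables pool the 2 libraries of a group. For the same reason leaving out a library was not run. Ratios of entries below 1 FPKM rest on few reads, whose number is unknown, and exact values there are the least certain.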

Other observations

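The same ratio and floor limits were met by 18 of the 48 entries (37.5%) within the position limits that name no locus, against 14.3% of the entries that name one. In a list of 2 loci taken as shoot photosynthesis genes, both entries were listed at 0 FPKM in all 3 groups.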
